A study of Caenorhabditis elegans with 2 samples.

Results

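The sites described here were 1071 entries of a chromatin immunoprecipitation sequencing (ChIP-seq) peak list for FLH-1 whose summits fell in introns of protein-coding genes of Caenorhabditis elegans. They were selected on the authors' signal value and on position: from the pooled list of 30000 entries, the 4000 with the highest signal value were taken, 3993 of them nuclear and 7 mitochondrial. A summit then had to lie more than 100 bp from every tRNA, snoRNA, snRNA and miRNA gene and outside the promoter window of every protein-coding gene (1000 bp upstream of the gene's 5′ end, 200 bp downstream). It also had to lie inside a protein-coding gene and in no exon of one. The other nuclear entries of the 4000 were 1119 in promoters, 767 in distal intergenic DNA, 678 in exons and 358 within 100 bp of a small RNA gene, and 7627 entries ranked below 4000 met the same intronic criteria. The signal value therefore chose the members, and it is given below as a description with no test.

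The data came from 1 group of 2 biological replicates of strain OP702, which carries the unc-119(tm4063) mutation and the transgene wgIs702. That transgene joins a rescuing unc-119(+) to a fusion written flh-1::TY1::EGFP::3xFLAG. Embryos of mixed stage and pooled sex were obtained by egg bleaching, with an age label of 2 hours, and sonicated chromatin was precipitated with an antibody against GFP. Both replicates carried the unc-119 mutation, the tagged flh-1 transgene and the rescuing unc-119 copy; an untagged strain was not analysed here. The protein measured was thus the product of a transgene in 1 line, and whole embryos mix all embryonic cell types, so a site used in few cells cannot be told apart from a weak site in many.

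FLYWCH zinc fingers bind DNA, and FLH-1 is 1 of the worm proteins that have them; with FLH-2 and FLH-3 it is known in C. elegans for repressing microRNA genes in the embryo. Introns of worm genes can hold enhancers, promoters of shorter transcripts of the same gene, and whole non-coding RNA genes. Small RNA genes read by RNA polymerase III often carry their promoter inside the transcribed sequence: tRNA genes hold an A box and a B box, and the RNAs of the signal recognition particle (SRP) and of RNase P belong to the same broad class of short structured RNAs. The selection removed annotated tRNA, snoRNA, snRNA and miRNA genes, but not tRNA pseudogenes or genes annotated only as ncRNA.

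Several of the strongest members held a recognisable sequence feature, and 10 summits chosen for such a feature are printed below. Of the 29 members in the authors' optimal peak set, 6 had no ncRNA gene or tRNA pseudogene nearby, no box form, no GT repeat and neither GCGCGC nor GAGAGA. No matching count over other entries is given here, so whether 6 is unusual was not tested. Among all nuclear entries of the 4000, 14.5% held GAGAGA and 14.2% lay within 100 bp of an ncRNA gene. Each printed sequence is read from the plus strand of the WBcel235 assembly, which is ce11. It is centred on the summit, with 50 bases to each side except at unc-104, where 100 are shown. Capitals mark an A box form (GCNNAG) and a B box form (GTTCGANNC or GTTCAANNC, N for any base) in that order on 1 strand at unc-104, tba-7 and srt-52, and a B box form alone at Y57G11C.22 and mdt-26. On the minus strand these forms appear as their reverse complements. At klp-6, capitals mark the bases inside the SRP RNA gene srpr-2.2. At kin-20 and zfp-1, capitals mark GCGCGC and GAGAGA, at T22F3.2 GCGCGC alone, and at ast-1 the GT repeat.
unc-104, chrII:7001505-7001705: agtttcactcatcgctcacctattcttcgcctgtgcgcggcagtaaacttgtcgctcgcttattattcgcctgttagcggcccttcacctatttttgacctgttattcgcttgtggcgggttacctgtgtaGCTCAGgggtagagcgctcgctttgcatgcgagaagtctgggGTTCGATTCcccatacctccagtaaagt
tba-7, chrIII:11371414-11371514: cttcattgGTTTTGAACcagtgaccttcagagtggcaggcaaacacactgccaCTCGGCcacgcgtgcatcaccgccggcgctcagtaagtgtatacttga
srt-52, chrV:53453-53553: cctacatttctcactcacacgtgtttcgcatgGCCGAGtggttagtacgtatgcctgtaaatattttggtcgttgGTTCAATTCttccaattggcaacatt
Y57G11C.22, chrIV:14838331-14838431: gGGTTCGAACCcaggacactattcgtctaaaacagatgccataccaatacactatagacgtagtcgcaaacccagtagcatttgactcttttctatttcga
mdt-26, chrII:5661875-5661975: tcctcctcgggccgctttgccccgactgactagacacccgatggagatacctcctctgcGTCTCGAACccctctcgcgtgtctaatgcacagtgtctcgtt
klp-6, chrIII:5031661-5031761: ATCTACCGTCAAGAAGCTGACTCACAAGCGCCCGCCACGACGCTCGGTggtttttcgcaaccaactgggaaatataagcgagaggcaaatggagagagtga
kin-20, chrX:15275233-15275333: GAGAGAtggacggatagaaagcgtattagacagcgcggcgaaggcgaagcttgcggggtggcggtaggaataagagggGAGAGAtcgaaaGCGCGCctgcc
T22F3.2, chrV:3587804-3587904: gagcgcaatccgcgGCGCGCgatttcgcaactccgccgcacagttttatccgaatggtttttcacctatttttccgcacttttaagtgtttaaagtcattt
zfp-1, chrIII:8794858-8794958: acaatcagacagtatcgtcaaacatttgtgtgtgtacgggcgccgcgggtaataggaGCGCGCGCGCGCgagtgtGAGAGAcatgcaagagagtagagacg
ast-1, chrII:4130422-4130522: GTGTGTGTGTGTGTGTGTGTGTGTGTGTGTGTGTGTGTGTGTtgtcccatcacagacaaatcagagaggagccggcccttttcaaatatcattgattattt

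At unc-104, which encodes a kinesin that carries synaptic vesicle precursors, the boxes belong to the annotated tRNA pseudogene C52E12.t1, whose near end lay 22 bp from the summit. A 36 bp word found elsewhere in the genome lay at the unc-104 summit, so the position of this site is uncertain. At tba-7, an alpha-tubulin gene, the boxes lay on the minus strand, and the summit was at the ncRNA genes T28D6.10, T28D6.13 and T28D6.15. At srt-52, a chemoreceptor gene, both boxes were present although no RNA gene was annotated within 100 bp. At klp-6, a kinesin gene, the summit lay 3 bp upstream of the 5′ end of srpr-2.2, so the capitals end just before the centre of the sequence.

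Support in the replicate lists was uneven. Because the pooled list was made from the reads of both replicates, an entry in a replicate list is not evidence independent of the selection. An entry with its summit within 100 bp was present in both replicate lists for 647 of the 1071 members, or 60.4% (exact Clopper-Pearson 95% interval 57.4 to 63.4). The same held for 64.8% of all nuclear entries of the 4000. Replicate 1 alone had such an entry for 329 members (30.7%), replicate 2 alone for 80 (7.47%), and neither for 15 (1.40%). Over all nuclear entries of the 4000 these shares were 26.9%, 6.74% and 1.58%. The imbalance between replicates was thus not particular to the members. The intervals here and below treat entries as independent and cover counting error only.

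The stricter count, a partner among the 4000 strongest entries of each replicate, was 153 members, or 14.3% (12.2 to 16.5), against 19.7% of all nuclear entries. Replicate 1 supplied such a partner for 634 members (59.2%) and replicate 2 for 354 (33.1%), against 60.8% and 37.2% of all nuclear entries. Over the 647 members with both partners, the median rank was 3462 in replicate 1 and 4413 in replicate 2, and 375 of them ranked higher in replicate 1. The values of the 2 replicates were only weakly related within this set: Pearson's r of the signal values was 0.08 and Spearman's rho −0.11 across members, with 0.03 for r without the 2 members farthest from the median. For all nuclear entries of the 4000 with both partners, 2588 in number, r was 0.52 and rho 0.17. The distal intergenic entries, 508 with both partners, resembled the intronic members, with r of 0.04 and rho of −0.10. These correlations are across sites of the same 2 libraries and after selection on their pooled signal, and are descriptions only. Where both replicates had a partner, the median distance between the replicate summits was 35 bp.

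**Figure D1:**
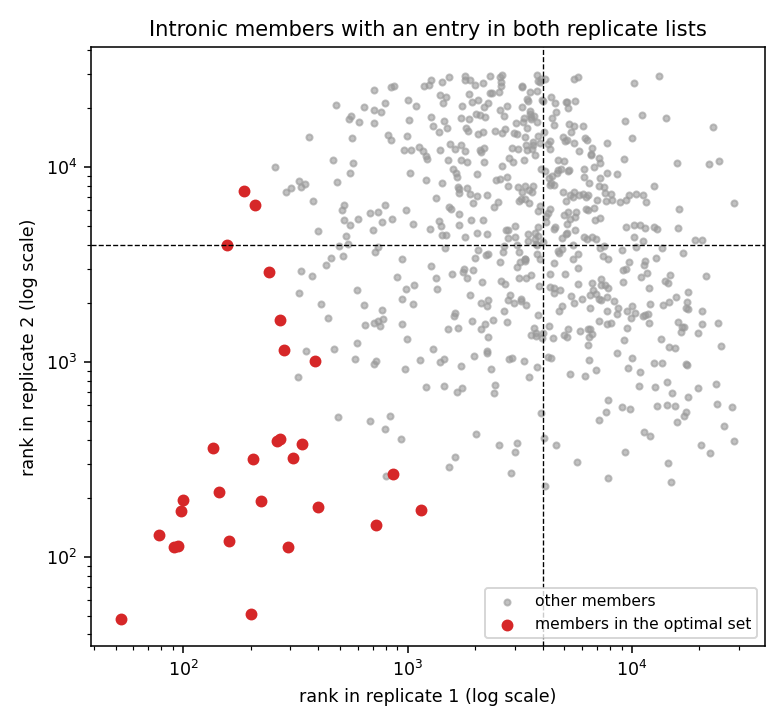
Rank by signal value in replicate 1 (horizontal) and replicate 2 (vertical), both on log scales, for the 647 intronic members with an entry within 100 bp in both lists; each point is a member and dashed lines mark rank 4000. Members of the optimal set, in red, sit mostly at the lower left, and the 4 of them with a rank above 2000 in a list have it in replicate 2.

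Few members were in the optimal set. The authors' optimal set, the entries left by their irreproducible discovery rate (IDR) procedure, which compares ranks between replicates, held 29 members, or 2.71% (1.82 to 3.87), against 9.12% of all nuclear entries of the 4000. In the other location classes the share was 9.20% at promoters, 4.04% in distal intergenic DNA, 0.74% in exons and 54.8% near small RNA genes. The optimal set is defined on the same signal, so these shares follow how strong each class was and were not tested. Its 29 members were the members at pooled ranks 1 to 371. Those ranks held 364 nuclear entries, as many as the nuclear entries of the 4000 that were in the optimal set. Membership here thus equals a cut on pooled rank and is not separate evidence from the replicates. Of the 29, 28 had partners in both replicate lists and 26 had both among the 4000 strongest. The exception, in K01F9.2, had its nearest replicate 1 summit 108 bp away, just past the limit, at rank 661 there.

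Support was lower at lower pooled ranks, which rest on the same reads. The first bin below holds the same 29 members as the optimal set. Both partners were present for 96.6% of the 29 members at ranks 1 to 371, 71.3% of the 167 at ranks 372 to 1000, 63.8% of the 282 at ranks 1001 to 2000, 60.5% of the 296 at ranks 2001 to 3000 and 47.5% of the 297 at ranks 3001 to 4000. Partners among the 4000 strongest of both replicates numbered 26, 72, 43, 12 and 0 in the same bins. Introns held 7.97% of nuclear entries at ranks 1 to 371, against 26.6% at ranks 372 to 1000 and 29.7% at ranks 3001 to 4000. Just inside the limit, the member in daf-5 had a pooled signal value of 47.0544 with ranks 28682 and 6560 in replicates 1 and 2, and that in lgc-33 had 47.0542 with ranks 7196 and 10529. Just outside, the entry in lag-1 had 47.0349 and that in pqn-41 had 47.0073. The signal values just inside and just outside the limit were thus nearly the same.

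**Figure D2:**
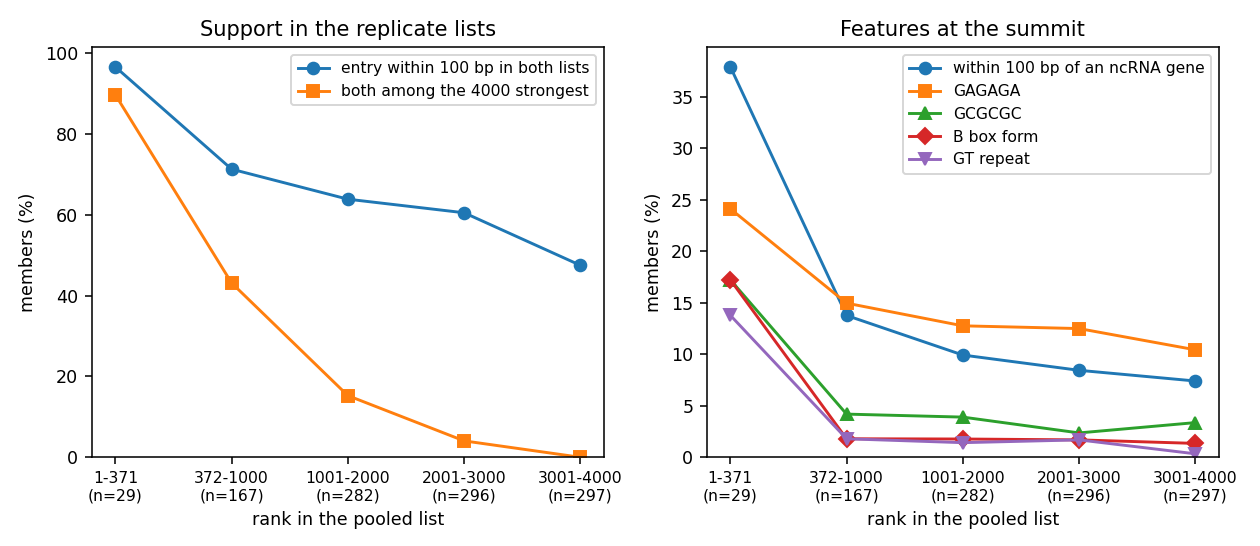
Share of intronic members (vertical, %) by bin of pooled rank (horizontal, number of members under each bin): left, members with an entry within 100 bp in both replicate lists and members with both among the 4000 strongest; right, members near an ncRNA gene and members with each sequence feature. The shares in the right panel are highest in the first bin, which holds only 29 members.

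The strongest member lay in ints-8, a gene for a subunit of the Integrator complex, on chromosome I at 13463743-13464206. Its signal value was 238 in the pooled list, where it ranked 45th, 152 in replicate 1 at rank 53 and 82.6 in replicate 2 at rank 48. Signal values are comparable only within a list. The summit lay 20 bp inside rpr-1, the gene for the RNA of RNase P, which matures the 5′ ends of tRNAs. This site was thus high in both replicates and sat on an RNA gene that the selection did not name.

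The next members by pooled signal were those in tba-7, unc-104, K05C4.2 and klp-6. The tba-7 site, printed above, had signal values of 197 pooled, 134 in replicate 1 and 54.1 in replicate 2, with ranks 81 and 78 in the first 2. The unc-104 site had 182, 125 and 57.8, with ranks 92 and 91. The site in K05C4.2 had 181, 122 and 46.8, with ranks 95, 98 and 173; it lay within the promoter window of a shorter transcript and held GCGCGC. The klp-6 site had 174, 123 and 57.02, with ranks 102, 95 and 114. These 4 sites kept places within the strongest 200 entries of both replicate lists.

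Further down, the replicates diverged more often. In ppfr-1, which encodes a regulatory subunit of protein phosphatase 4, the site had a pooled signal value of 161, with ranks of 200 in replicate 1 and 51 in replicate 2, and it held a GT repeat at the ncRNA gene F16A11.7. The site in spe-15, a myosin VI gene used in sperm, ranked 121, 100 and 195 and held a B box form without an annotated RNA gene. The kin-20 site, in a casein kinase 1 gene, ranked 132, 160 and 121. Those in drap-1, srt-52 and gpb-1, the last the gene of a G protein beta subunit, ranked 169, 171 and 178 in the pooled list. Their ranks in replicate 1 were 144, 136 and 294, and in replicate 2 they were 215, 362 and 113. The drap-1 site lay at the ncRNA genes F40F9.14 and F40F9.15, and the gpb-1 site 11 bp from F13D12.11.

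The ast-1 site, in a gene for an ETS-family factor of dopaminergic neurons, was the first of the strong members to rest largely on 1 replicate. It ranked 207 pooled and 156 in replicate 1, with a signal value of 93.4 there, but 3964 in replicate 2 with 19.3. The other 3 members of the optimal set with a rank above 2000 in a list showed the same imbalance: Y57G11C.22 ranked 186 in replicate 1 and 7558 in replicate 2, zfp-1 241 and 2884, and T18D3.9 208 and 6363. The opposite order, with replicate 2 higher, was seen at gsa-1 (726 and 146), at a second site in ppfr-1 (1144 and 175) and at mdt-26 (864 and 267). The remaining sites of the optimal set include the cohesin loader gene scc-2 with ranks 205 and 318, ckb-2 with 263 and 393, and T22F3.2 with 309 and 321.

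**Figure D3:**
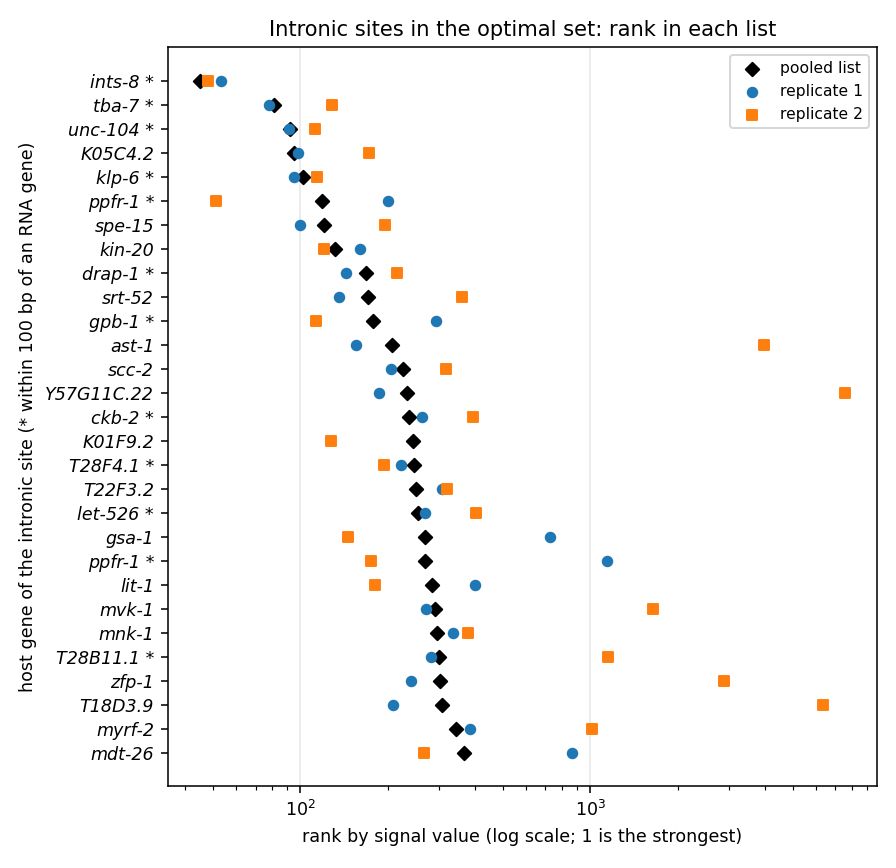
Rank by signal value (horizontal, log scale, 1 is the strongest) of the 29 intronic members in the optimal set in the pooled list, replicate 1 and replicate 2, each row a member named by its host gene in order of pooled rank; an asterisk marks a summit within 100 bp of an annotated ncRNA gene or tRNA pseudogene. The asterisks cover 12 of 29 rows, and Y57G11C.22 and T18D3.9 show the widest gap between replicates.

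The name given to these sites, intronic and away from small RNA genes, held for the 4 classes of RNA gene in the rule but not for other RNA genes. Of the 29 members in the optimal set, 12 lay within 100 bp of an ncRNA gene or a tRNA pseudogene, and 16 had neither of these nor an A and B box in order. Over all members, 109 lay within 100 bp of an annotated ncRNA gene, or 10.2% (8.43 to 12.1). The share was 4.76% of the lower ranked intronic entries, 16.4% of the distal intergenic entries and 11.8% of the promoter entries. Of the 30.4 Mb of intron that could have held a member, 2.33% lay that close to an ncRNA gene. By pooled rank the counts were 11 of 29, 23 of 167, 28 of 282, 25 of 296 and 22 of 297. When summits in exons of non-coding genes (other than piRNA genes) were also left out, 1002 members remained, of which 19 were in the optimal set.

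Individual RNA genes were looked up because of the strongest sites, after their values were seen. Besides rpr-1, the SRP RNA genes srpr-2.2 and srpr-1.2, on chromosome III, each held a member, at pooled ranks 102 and 237. The srpr-1.2 summit, in an intron of the choline kinase gene ckb-2, lay 182 bp inside the RNA gene, whereas that at srpr-2.2 lay at its 5′ end. Entries at copies outside introns were ranked 203 at srpr-2.1, 1619 at srpr-3 and 851 at srpr-1.1, the last in an exon and with no replicate 2 partner, and mrpr-1, for the RNA of the mitochondrial RNA-processing RNase, had one at 62 in a promoter window. The SRP RNA genes are similar copies, and both the klp-6 and the ckb-2 window hold a 36 bp word found elsewhere in the genome, so reads could have been split between copies, and which copy was bound is uncertain. The Y RNA gene yrn-1 and the non-coding gene rncs-1 had no entry within 100 bp.

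tRNA-like sequence was sought in annotated pseudogenes and in the box forms. Annotated tRNA pseudogenes accounted for 4 members at 3 pseudogenes, 0.37% of members, against 0.18% of lower ranked entries and 0.09% of eligible intron bases. Of 209 nuclear tRNA pseudogenes, 6 had an entry of the 4000 within 100 bp. A B box form was found within 50 bp of the summit at 22 members, 2.05% (1.29 to 3.09), against 2.01% of lower ranked intronic entries; among the members of the optimal set it was present in 5 of 29. An A and a B box form in order, 25 to 80 bp apart and within 150 bp of the summit, occurred at 16 members, 1.49%, against 1.43% of lower ranked entries and 35.8% of entries near small RNA genes. For scale, the B box forms occurred in 588 of 612 nuclear tRNA genes, the A box form in 332, both in 313, and both in order at the stated spacing in 261, so the search for the pair misses many annotated tRNA genes. The box forms were thus present at a few of the strongest sites, while their share over all members was close to that among weaker intronic entries.

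The DNA at members was richer in G and C than introns in general. The median GC content of the summit and 50 bp to each side was 43.6%, with a middle range of 37.6 to 50.5%, against 38.6% for lower ranked intronic entries and 32.0% over all eligible intron bases. It was 45.5% for both promoter and intergenic entries of the 4000, 46.5% for exonic ones and 49.5% near small RNA genes. Within the members, the median was 54.5% at ranks 1 to 371, then 47.5%, 44.6%, 42.6% and 41.6% in the bins that followed. It was 47.5% for the 153 members with partners among the 4000 strongest of both replicates and 43.6% for the other 918. GC content can affect both fragment recovery and read alignment, and its part in the signal was not tested. Members also held less masked repeat sequence than lower ranked intronic entries: the median soft-masked share was 22.8%, against 35.6%. They held more than the other location classes of the 4000. The medians there were 19.8% for both intergenic and promoter entries, 3.96% near small RNA genes and 0% in exons.

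**Figure D4:**
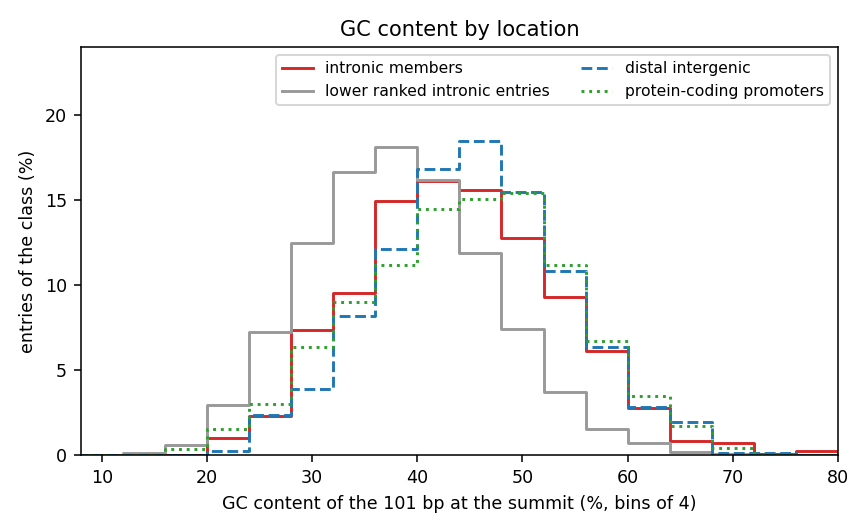
Distribution of GC content (horizontal, %, bins of 4 percentage points) of the summit and 50 bp to each side, as the share of entries of each location class (vertical, %). The curve of the intronic members, median 43.6%, lies to the right of that of lower ranked intronic entries, median 38.6%, and close to those of intergenic and promoter entries, both with a median of 45.5%.

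Short words differed between members and lower ranked intronic entries in ways partly shared with GC content. All the words except TTAGGC were known from earlier results of these data. Their shares are therefore descriptions and not independent support. GAGAGA, read on either strand, occurred at 136 members, 12.7% (10.8 to 14.8), against 6.98% of lower ranked entries, 16.4% of promoter and 20.1% of intergenic entries. Among windows of 40 to 50% GC, it occurred in 17.9% of members (14.4 to 21.96) and 10.1% of lower ranked entries (8.91 to 11.3), while among windows of 30 to 40% GC it occurred in 5.16% and 5.197%. GCGCGC occurred at 40 members, 3.73% (2.68 to 5.05), against 1.55% of lower ranked entries. The member share was close to the 3.63% of all nuclear entries of the 4000, with 5.72% of promoter and 3.13% of intergenic entries. Within windows of 40 to 50% GC the shares were 3.11% (1.67 to 5.26) and 1.98% (1.47 to 2.61), whose intervals overlap. In the optimal set, 7 of 29 members held GAGAGA and 5 held GCGCGC, and 3 held both, in ints-8, kin-20 and zfp-1. ATTTTT was the reverse case, at 31.3% of members and 48.1% of lower ranked entries. GTTCGA, the core of the B box, was at 2.52% and 2.90%, and TTAGGC, the worm telomere repeat unit, at 5.04% and 6.04%.

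Runs of at least 8 GT units were rare. They occurred at 17 members, 1.59% (0.93 to 2.53), against 0.30% (0.19 to 0.45) of lower ranked intronic entries. By pooled rank the counts were 4 of 29, 3 of 167, 4 of 282, 5 of 296 and 1 of 297. The 4 in the optimal set were in ppfr-1 with 2 neighbouring sites, ast-1 and lit-1, the gene of a Nemo-like kinase of the Wnt pathway. The share was 1.57% of intergenic and 0.63% of promoter entries. A 36 bp word found elsewhere in the genome was present at 92 members, 8.59% (6.98 to 10.4), against 11.7% of lower ranked entries, and at 6 of the 29 in the optimal set. How reads in such repeats were placed is not given in the sources used here, so these sites are uncertain in position.

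Members were denser in long introns than in short ones. Numbered in the host transcript with the longest span, the intron that held a member had a median length of 1636 bp (interval 1378 to 1824, n = 1069), against 1047 bp for lower ranked entries and 989 bp over eligible bases. Introns of 2000 bp and more held 45.4% of members, 33.0% of lower ranked entries and 30.03% of eligible bases. Expressed per length, members numbered 21.0 per Mb in introns under 500 bp, 31.8 in those of 500 to 2000 bp and 53.3 in those of 2000 bp and more, against 35.3 over all eligible introns. Median GC content at members was also higher in the long introns, at 45.5%, than in those under 500 bp, at 40.6%.

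First introns, which in many genes carry regulatory elements, held 303 members, or 28.3% (25.6 to 31.1). Lower ranked entries lay there in 23.8% (22.8 to 24.8) and eligible bases in 22.8%. Counting an intron as first when it was so in any transcript of the host gave 41.0% (38.03 to 44.0), 34.4% (33.3 to 35.5) and 32.2%. The promoter window of a shorter protein-coding transcript, which the selection did not remove because it used only the 5′ end of the whole gene, held 173 members, 16.2% (13.998 to 18.5). For lower ranked entries this was 13.7% (13.0 to 14.5) and for eligible bases 10.9%. By pooled rank the share was 34.5%, 19.2%, 19.1%, 14.2% and 11.8%. In the optimal set, 10 of 29 members were so placed, such as those in K05C4.2, drap-1, scc-2 and the mevalonate kinase gene mvk-1, and 11 were in a first intron. Without the members near a transcript start, an ncRNA gene or a tRNA pseudogene, 812 remained, with 10 in the optimal set and 25.2% in a first intron.

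**Figure D5:**
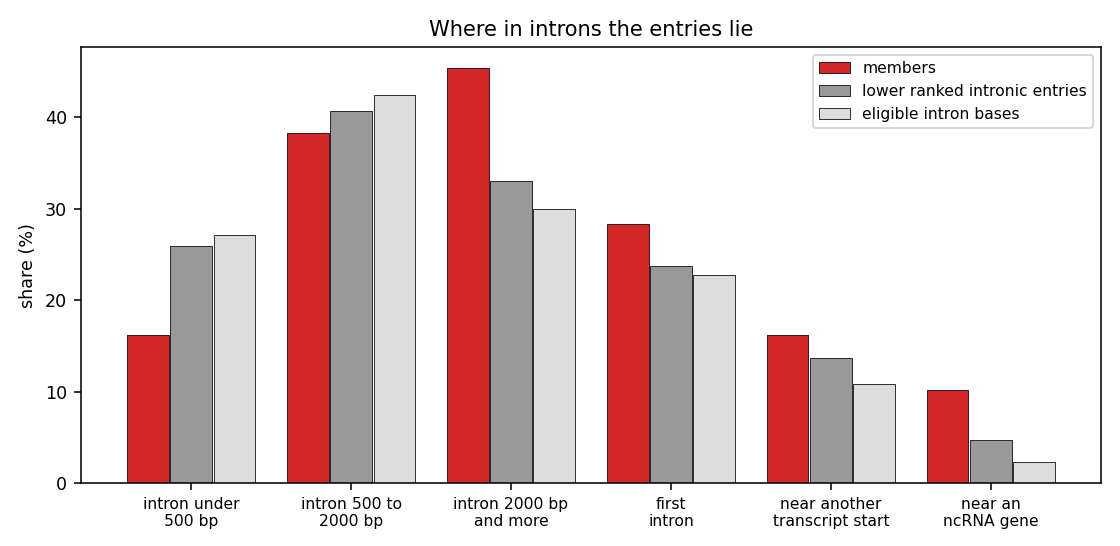
Share (vertical, %) of the 1071 intronic members, of the 7627 lower ranked intronic entries and of the eligible intron bases in each intron length class, in first introns, in the promoter window of another transcript and within 100 bp of an ncRNA gene (horizontal). Members exceed both references in introns of 2000 bp and more (45.4%), in first introns (28.3%) and near ncRNA genes (10.2%), and are below both in introns under 500 bp.

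The members were spread over all 6 nuclear chromosomes. Chromosome I held 212, II 195, III 203, IV 142, V 165 and X 154. The share on X was 14.4% (12.3 to 16.6), against 14.7% of lower ranked intronic entries, 16.8% of eligible bases and 22.4% of the distal intergenic entries. On II it was 18.2% (15.9 to 20.6), against 16.05% of lower ranked entries and 14.01% of eligible bases. On IV it was 13.3% (11.3 to 15.4), against 14.7% and 17.3%. On III it was 18.95% (16.6 to 21.4), against 18.1% and 15.96%, and on V 15.4% (13.3 to 17.7), against 17.4% and 17.8%. The intervals for II and III lay above the share of eligible bases and those for IV, V and X below it, while that for chromosome I included it. All 6 intervals included the share of lower ranked intronic entries, which was 19.1% on chromosome I. The members thus did not stand apart from weaker intronic entries in their chromosomes.

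The 1071 members fell in 803 host genes, of 17531 protein-coding genes with eligible intron sequence. Most hosts, 643, held 1 member; 102 held 2, 32 held 3, and 26 held 4 or more. Within 500 bp of another member lay 80 members, and 40 neighbouring pairs overlapped, so these are not independent sites. The most members, 8, were in let-526, which encodes an ARID subunit of the SWI/SNF chromatin remodelling complex; its strongest ranked 255 pooled, and 2 of the 8 had partners among the 4000 strongest of both replicates. Next came ppfr-1 and zfh-2, a zinc finger homeodomain gene, with 7 each and with 4 and 2 such members. Y48C3A.5, hlh-30 (the worm TFEB, a regulator of autophagy genes) and lit-1 held 6 each. Relative to intron length, let-526 held 90.8 members per 100 kb, ppfr-1 35.8 and zfh-2 26.6, and the introns of the 3 genes held 4, 4 and 15 lower ranked entries respectively.

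Host genes were also read against 9 lists of gene classes. Over all protein-coding genes, members numbered 35.3 per Mb of eligible intron and lower ranked entries 251 per Mb. Genes of Wnt, Notch, TGF-beta and receptor kinase signalling held 32 members in 13 of 69 genes, 99.3 per Mb, with 351 lower ranked entries per Mb. The strongest of these were in lit-1 at pooled rank 284, the FOXO gene daf-16 at 423 (679 and 498 in replicates 1 and 2) and cam-1, a ROR receptor kinase gene, at 491, which had no replicate 1 partner. Of the 32, 6 had partners among the 4000 strongest of both replicates. Adhesion and axon guidance genes held 44 members in 22 of 73 genes, 83.1 per Mb, with 355 lower ranked entries per Mb. Their strongest were in igcm-4 at 389, the apical junction gene ajm-1 at 394 and the Robo receptor gene sax-3 at 643. In replicate 1 these ranked 217, 256 and 699, whereas in replicate 2 igcm-4 had no partner and the others ranked 9965 and 4762. Only 2 of the 44 had partners among the 4000 strongest of both replicates, against 14.3% of all members.

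The list of basement membrane and matrix genes held 12 members in 5 of 26 genes, 74.8 per Mb. It was led by col-99, vab-10 and unc-52 (perlecan) at pooled ranks 1191, 1217 and 1558. Of these, vab-10 encodes a cytoskeletal linker and not a matrix protein, so the density is that of the list as written. Homeobox genes held 11 members in 8 of 98 genes, 42.7 per Mb, led by lin-11 at 599, unc-62 at 664 and cog-1 at 1553. That list does not hold zfh-2, whose strongest member ranked 437; with it, again counted after its values were seen, there were 18 members and 63.4 per Mb. Nuclear hormone receptor genes held 19 in 18 of 269, 42.1 per Mb, led by nhr-3 at 404, the molting regulator nhr-23 at 629 and nhr-111 at 783. Muscle contraction genes held 10 in 7 of 52, 44.2 per Mb, led by act-4 at 538, the tropomyosin gene lev-11 at 696 and unc-95 at 1359. These 4 lists lay above the overall density of members, and also above that of lower ranked entries except the nuclear hormone receptor genes: the latter densities were 349 per Mb for matrix, 338 for homeobox, 246 for nuclear hormone receptor and 296 for muscle genes, against 251 overall.

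Ion channel genes held 24 members in 19 of 169 genes, 28.3 per Mb, led by unc-58, twk-5 and kqt-3 at pooled ranks 554, 667 and 716. Histone modification and chromatin remodelling genes held 6 in 5 of 98, 28.6 per Mb, led by pbrm-1 at 765, mys-2 at 2009 and spr-5 at 2571. That list does not hold let-526; with it, in a count made after its values were seen, there were 14 members and 64.0 per Mb. Neurotransmitter receptor genes held 10 in 9 of 172, 16.6 per Mb, led by npr-42 at 721, npr-13 at 956 and lgc-33 at 1101. As written, these 3 lists lay below the overall density, but the chromatin list lay above it with let-526 included, so its place rests on that 1 gene. Members share host genes, and long introns carried more members per length, so the densities describe the lists and were not tested. The introns of flh-1, flh-2 and flh-3 held no member, and unc-119, carried on the transgene, held none and 4 lower ranked entries.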

How the data were processed

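ChIP-seq peak lists were analysed for 2 biological replicates that form 1 group; groups could not be compared. Per the deposited description files, the authors called entries on each replicate and on the pooled reads against a control alignment in ce11, 30000 entries per list, and deposited 371 optimal peaks left by an IDR threshold. The signal value is the authors' deposited score; its scale, the aligner and the caller: not given in the sources used here. Its order within a list was used to rank entries, and its values entered only Pearson's r between the replicates and the values printed for named sites. Read depth is unknown.

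Summits were placed against the Ensembl release 115 annotation of WBcel235 (chromosome lengths fit all entries). A host is the innermost gene; introns were numbered in its transcript of longest span. Summits with 50 bp to each side were read from the RefSeq assembly, in which lower case marks repeats. Words were counted on both strands. Shares carry exact Clopper-Pearson 95% intervals; no test was made. Python 3.11.15, numpy 2.4.6 and scipy 1.17.1 were used, and the code was tested on simulated data. Members, lists and all words except TTAGGC were chosen with earlier results of these data known. Named hosts were those of the 12 strongest members, of members in the optimal set (part of them as counts), at the limit, with the most members, the 3 strongest per list, and flh-1, flh-2, flh-3 and unc-119. RNA genes, and hosts cited for replicate imbalance, were named after their values were seen. Alternatives changed the number kept, distances, promoter reach, exons, windows, repeats, neighbours and the replicate used.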

Additional observations from a re-analysis of the deposited data

How the results depend on the processing

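Of the values under alternative settings, 125 stayed within their limits (the 95% interval, or 1.5 times for counts) and 34 moved beyond them. None was counted as reversed, although the chromatin list went from below to above the overall density with let-526. The count of 29 optimal members was fixed in advance with the 2000 and the 8000 strongest entries, because all 29 ranked within the first 371. With the 2000 and the 8000 strongest entries, members numbered 478 and 2274, host genes 393 and 1513, members with both partners 68.4% and 50.8%, partners among the 4000 strongest 29.5% and 6.73%, and median GC 46.5% and 42.6%; median intron length was 1363 bp with 8000. Partners within 50 bp gave 38.2% and 9.15%, and within 200 bp 79.9% and 20.6%. Leaving out exons of every biotype except piRNA left 19 members in the optimal set. Choosing members from 1 replicate alone gave both partners for 35.6% to 38.7%, median GC of 41.6% to 42.6% and a median intron of 1328 to 1435.5 bp. There each member is its own partner in the chosen list. Both partners then required only an entry in the other replicate, so this share is not the same measure as the main one. In these settings the optimal count used summits within 100 bp. Windows of 25 and 150 bp to each side gave GCGCGC at 1.77% and 7.94%, GTTCGA at 0.93% and 9.80%, repeated words at 4.20% and 18.1%, and median GC of 43.1% and 43.2%; leaving out repeats gives 0 by construction. A first intron in any transcript gave 41.0%. An alternative chosen after seeing the data, without members near ncRNA genes, tRNA pseudogenes or other transcript starts, left 10 optimal members and 25.2% in first introns. No paired analysis was possible because there is 1 group and no test. With 2 replicates, unknown depth and no untagged control analysed here, weak members cannot be told from background.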
